A study of Mus musculus with 6 samples.

Results

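The transcripts described here are those encoded by the mitochondrial genome of mouse Achilles tendon. They were chosen by name: every line of the RNA-seq count table whose symbol begins with mt-, with repeated lines counted once. This gave 35 of the 53726 genes in the table, 13 protein genes and 22 tRNA genes. The 2 mitochondrial rRNA genes were not analysed here. RNA-seq covered Achilles tendon of 4-week-old mice with 1 library per genotype. The Control carried Dicer f/f, ScxHt carried the ScxCre/+ knock-in with Dicer +/+, and Dicer cKO carried the ScxCre/+ knock-in with Dicer f/f. Cre was thus expressed from the Scx locus, which is active mainly in tendon and ligament cells, and the knock-in, which inactivates the Scx allele that carries it, was shared by ScxHt and Dicer cKO. Dicer1, the targeted gene, had 1919 counts in Control tendon, 2025 in ScxHt and 1621 in Dicer cKO, a Dicer cKO/Control ratio of 0.877 (95% counting interval 0.821 to 0.938).

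Mitochondrial DNA encodes core subunits of complexes I, III, IV and V of oxidative phosphorylation and the RNAs needed to translate them. Both strands are transcribed into long precursors, and the tRNAs that lie between the other genes are cut out to release the mRNAs and rRNAs. The remaining subunits, and every factor that copies, transcribes and translates this genome, are encoded in the nucleus. Mitochondrial transcripts are abundant in oxidative muscle and scarcer in fibroblasts.

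The genome of 16299 bases is compact, and neighbouring genes share bases. The 3 longest of these stretches are shown, and shorter ones, such as the base shared by mt-Atp6 and mt-Co3, are not. They matter because a read that covers one cannot be given to a single gene from its position. The shared bases are in capitals between 15 flanking bases on each side, on the plus strand of GRCm38.
mt-Atp8 and mt-Atp6 share 43 bases, chrM:7927-7969: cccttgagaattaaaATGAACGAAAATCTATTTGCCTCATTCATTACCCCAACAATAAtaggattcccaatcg
mt-Nd4l and mt-Nd4 share 7 bases, chrM:10167-10173: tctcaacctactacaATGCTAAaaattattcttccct
mt-Nd5 and mt-Nd6, on opposite strands, share 14 bases, chrM:13552-13565: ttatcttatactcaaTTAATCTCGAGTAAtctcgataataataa
The first and second pairs are on the same strand and each pair is known to remain on 1 mRNA. The capitals of these pairs open with the ATG that starts the second reading frame.

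The tRNAs shown next are the 3 that had enough counts to be compared and mt-Tp, whose values are described below and which was chosen after its counts were seen. Each is written 5′ to 3′ from the GRCm38 sequence on its own strand, with the anticodon in capitals. The anticodons were placed by a search that matched 12 of 12 positions given by RefSeq.
mt-Tl1 (leucine, chrM:2676-2750, plus strand): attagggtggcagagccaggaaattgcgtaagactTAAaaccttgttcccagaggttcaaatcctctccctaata
mt-Tw (tryptophan, chrM:4950-5016, plus strand): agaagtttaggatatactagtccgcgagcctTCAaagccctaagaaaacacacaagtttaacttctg
mt-Tg (glycine, chrM:9391-9458, plus strand): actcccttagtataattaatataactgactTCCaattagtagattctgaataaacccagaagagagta
mt-Tp (proline, chrM:15356-15422, minus strand): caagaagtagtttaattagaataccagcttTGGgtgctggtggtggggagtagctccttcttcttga
mt-Tl1 lies between the large rRNA and mt-Nd1, mt-Tw follows mt-Nd2, and mt-Tg lies between mt-Co3 and mt-Nd3.

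Mitochondrial genes held 560737 counts in Control tendon, 333782 in ScxHt and 662478 in Dicer cKO. As a share of all counts this was 3.46% in the Control (95% Clopper-Pearson interval 3.45 to 3.47%), 2.12% in ScxHt (2.11 to 2.13%) and 4.44% in Dicer cKO (4.42 to 4.45%). The share was therefore lowest in ScxHt and highest in Dicer cKO. These intervals, like all others given here, cover counting error only. Each genotype had 1 library, so no test could be run and the spread between mice is unknown. In bulk tissue, fewer cells of a type and less RNA per cell cannot be told apart. The libraries held 14936241 to 16218733 counts, so that counting error was small for the protein genes and large for most tRNAs.

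The make-up of the mitochondrial counts varied far less than their amount. Complex IV genes, which encode cytochrome c oxidase, held 52.3% of mitochondrial counts in Control tendon, 51.8% in ScxHt and 51.5% in Dicer cKO. Complex I genes, which encode NADH dehydrogenase, held 35.5%, 35.5% and 36.2% in the same order. mt-Atp6 and mt-Atp8, of the ATP synthase, held 7.31%, 7.70% and 7.53%, and mt-Cytb, of complex III, held 4.77%, 4.85% and 4.65%. The tRNA genes held 0.136%, 0.155% and 0.143%. mt-Co1, the catalytic subunit of cytochrome c oxidase, alone held 46.3%, 45.0% and 45.2% of the mitochondrial counts.

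Per length, on the scale of the deposited RPKM (reads scaled by gene length and library total), mt-Co1 was the most abundant protein gene at 10345 in Control tendon, 6166 in ScxHt and 12943 in Dicer cKO. mt-Nd3 was the least abundant at 418, 272 and 555. The span between them was 24.8-fold, 22.6-fold and 23.3-fold. In the Control the order below mt-Co1 was mt-Atp8, mt-Nd1, mt-Nd5, mt-Atp6, mt-Co3, mt-Nd4, mt-Cytb, mt-Nd2, mt-Co2, mt-Nd4l, mt-Nd6 and mt-Nd3. The rank was the same in all libraries for 9 of the 13 genes. mt-Nd4 and mt-Cytb changed places in ScxHt, and mt-Nd1 and mt-Nd5 in Dicer cKO. Genes of the same precursor thus differed widely in RPKM. mt-Co1 exceeded mt-Co2, a neighbour on the same strand, by 12.6-fold, 11.1-fold and 11.8-fold on this scale. RPKM is not a plain measure of transcript level here. In the Control mt-Atp8 was at 1.45 times mt-Atp6 and mt-Nd4l at 0.436 times mt-Nd4, although each pair shares an mRNA. mt-Co2 and mt-Nd3 lie wholly, and mt-Co1 in part, within a nuclear copy described below.

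**Figure D1:**
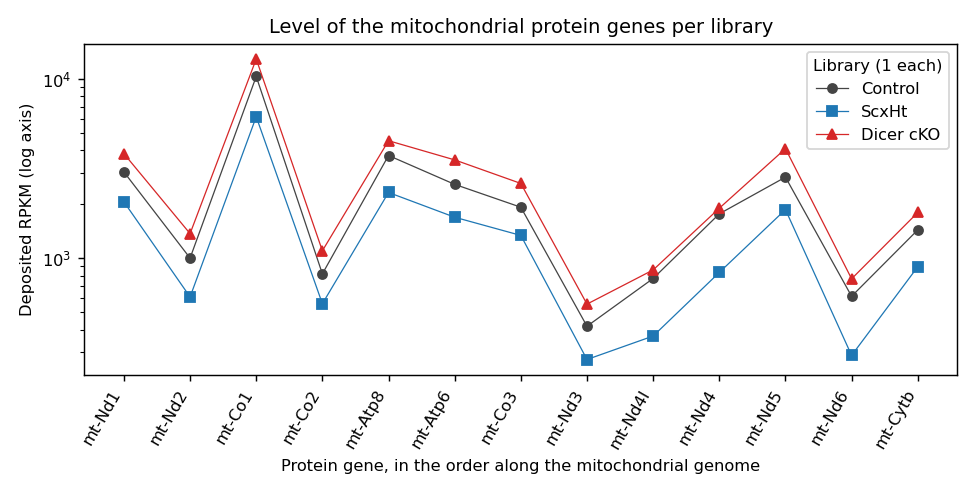
Deposited RPKM (log axis) of the 13 mitochondrial protein genes in their order along the genome, 1 point per library. The 3 profiles run almost in parallel, from mt-Nd3 at 272 to 555 up to mt-Co1 at 6166 to 12943, with ScxHt lowest at every gene and Dicer cKO highest.

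To compare the genotypes, counts were divided by DESeq2 size factors of the 2 libraries compared. The mean of the 2 normalized counts is the baseMean. Genes with a baseMean above 50 were compared, and a gene was called lower below a ratio of 0.60 and higher above its reciprocal. All 13 protein genes and 3 tRNA genes passed the minimum in each comparison, and 19 tRNA genes did not. Over all genes compared, the median log2 ratio was -0.03 in Dicer cKO/Control and in Dicer cKO/ScxHt and 0.02 in ScxHt/Control.

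The protein genes were moderately more abundant in Dicer cKO than in the Control. No mitochondrial gene was called higher or lower, where 3.87% of all genes compared were called higher and 4.19% lower. Every one of the 13 protein genes had a counting interval above 1, which is narrow at such high counts. Their median ratio was 1.21 (log2 0.27), and 80.5% of all genes compared had a ratio below it. This direction turned with the scaling. Relative to the median of skeletal muscle markers the median log2 ratio was -0.61, and relative to nuclear-encoded respiratory chain genes it was -0.047. The ratios ran from 1.03 for mt-Nd4 to 1.38 for mt-Nd5.

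Against the Control, ScxHt had fewer mitochondrial transcripts. In ScxHt/Control, 9 of the 16 genes compared were called lower and 0 higher, where 4.71% of all genes compared were called lower and 3.03% higher. Of the protein genes 7 were called lower, and all 13 counting intervals were below 1. The median ratio was 0.579 (log2 -0.79), and 4.04% of all genes compared had a ratio below it. Relative to the skeletal muscle markers the median log2 ratio was -0.43 and 4 genes were called lower, and relative to nuclear-encoded respiratory chain genes it was -0.58, also with 4. At a threshold of 0.5, 4 were called lower. The remaining 6 protein genes, mt-Nd1, mt-Nd3, mt-Nd5, mt-Co2, mt-Co3 and mt-Atp6, lay between 0.607 and 0.647, just above the threshold.

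Between the 2 libraries that carry the knock-in, the difference was larger. In Dicer cKO/ScxHt all 13 protein genes and 2 tRNA genes were called higher, 15 of 16 in all, and 0 were called lower. Of all genes compared 7.68% were called higher and 5.68% lower. The median ratio of the protein genes was 2.18 (log2 1.13), from 1.94 for mt-Nd1 to 2.80 for mt-Nd6. Relative to the skeletal muscle markers the median log2 ratio was -0.13 and no gene was called higher. The 3 comparisons share libraries, so that their values are not independent of each other. The 13 genes are cut from shared precursors and are not replicates of a genotype.

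**Figure D2:**
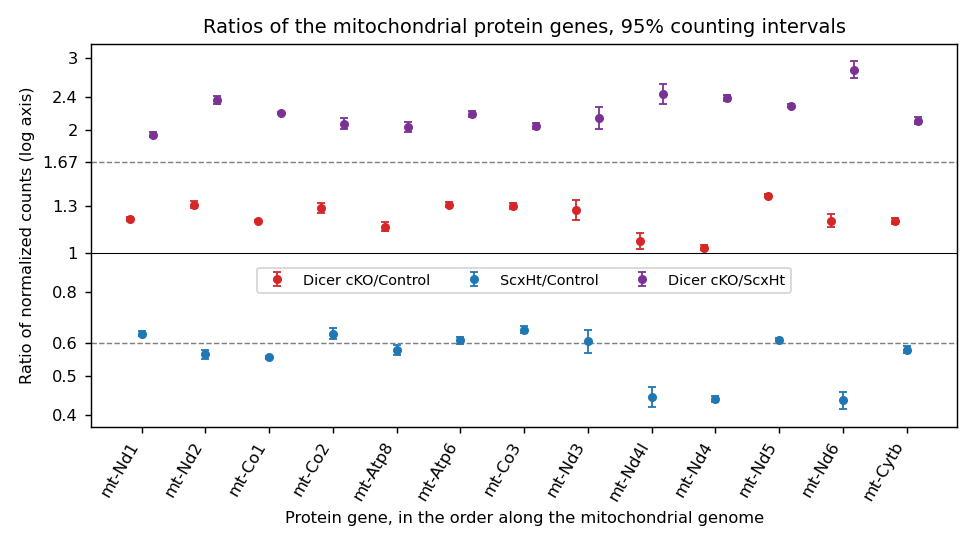
Ratio of normalized counts (log axis) for each mitochondrial protein gene in its order along the genome, with 95% counting intervals as bars; 1 library per genotype, dashed lines at 0.60 and its reciprocal. Dicer cKO/Control runs from 1.03 to 1.38, ScxHt/Control from 0.435 to 0.647 and Dicer cKO/ScxHt from 1.94 to 2.80, with mt-Nd4l and mt-Nd4 low in both comparisons against the Control.

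Complex I has 7 mitochondrial subunits. mt-Nd1 (chrM:2751-3707) had 47125 counts in Control tendon, 31167 in ScxHt and 54893 in Dicer cKO. mt-Nd2 (chrM:3914-4951) had 16899, 9960 and 21316, and mt-Nd3 (chrM:9459-9806) had 2361, 1495 and 2890. All 3 encode membrane subunits of the proton-pumping arm. Their Dicer cKO/Control ratios were 1.21, 1.31 and 1.27, and their ScxHt/Control ratios 0.633, 0.565 and 0.607. mt-Nd2 was the one below the lower threshold.

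mt-Nd4l (chrM:9877-10173) and mt-Nd4 (chrM:10167-11544) encode further membrane subunits and share an mRNA. mt-Nd4l had 3722 counts in Control tendon, 1725 in ScxHt and 3825 in Dicer cKO, and mt-Nd4 had 39629, 18116 and 39226. The Control and Dicer cKO libraries were nearly level for this pair, unlike for the other protein genes. Dicer cKO/Control was 1.07 (1.02 to 1.12) for mt-Nd4l and 1.03 (1.01 to 1.04) for mt-Nd4, the 2 lowest ratios of the protein genes. ScxHt/Control was 0.444 (0.419 to 0.470) and 0.438 (0.430 to 0.446). The ratios of the pair were close, with intervals that overlap in each of the 3 comparisons, and mt-Nd4l held 8.59%, 8.69% and 8.88% of the pair's counts.

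mt-Nd5 (chrM:11742-13565), the next protein gene on the same strand, did not follow them. It had 84056 counts in Control tendon, 53775 in ScxHt and 111620 in Dicer cKO. Its Dicer cKO/Control ratio of 1.38 (1.37 to 1.39) was the highest of the protein genes, and its ScxHt/Control ratio was 0.613 (0.606 to 0.619). mt-Nd4 held 32.0% of the counts of mt-Nd4 and mt-Nd5 in the Control (31.8 to 32.3%), 25.2% in ScxHt (24.9 to 25.5%) and 26.0% in Dicer cKO (25.8 to 26.2%). This share does not depend on the scaling of the libraries, and it was higher in the Control than in both libraries with the knock-in. It can depend on how reads that fit nuclear copies were counted. Of mt-Nd4, 63.6% lies in the chromosome 1 copy described below, and mt-Nd5 lies outside it.

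mt-Nd6 (chrM:13552-14070) is the protein gene encoded on the opposite strand, and is thus transcribed from the other precursor. It had 5174 counts in Control tendon, 2350 in ScxHt and 5965 in Dicer cKO. Its share of the protein gene counts was 0.924% (0.899 to 0.949%), 0.705% (0.677 to 0.734%) and 0.902% (0.879 to 0.925%). The ScxHt value stood below the other two, whose intervals overlap. mt-Nd6 had the lowest ScxHt/Control ratio of the protein genes at 0.435 (0.414 to 0.457) and the highest Dicer cKO/ScxHt ratio at 2.80 (2.67 to 2.93). In RPKM, mt-Nd5 exceeded mt-Nd6 by 4.62-fold in the Control, 6.51-fold in ScxHt and 5.32-fold in Dicer cKO. The sources used here do not say whether reads were counted by strand, so reads from the antisense RNA at this locus cannot be told apart from mt-Nd6.

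mt-Cytb (chrM:14145-15288), the mitochondrial subunit of complex III, had 26761 counts in Control tendon, 16179 in ScxHt and 30833 in Dicer cKO. Its ratio was 1.20 in Dicer cKO/Control, 0.579 in ScxHt/Control and 2.10 in Dicer cKO/ScxHt, near the median of the protein genes each time.

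Of the complex IV genes, mt-Co1 (chrM:5328-6872) had 259597 counts in Control tendon, 150203 in ScxHt and 299124 in Dicer cKO. mt-Co2 (chrM:7013-7696), which carries the copper site that takes up electrons from cytochrome c, had 9094, 6017 and 11269. mt-Co3 (chrM:8607-9390), also a core subunit, had 24543, 16584 and 30681. ScxHt was lowest and Dicer cKO highest for each of them. In ScxHt/Control, mt-Co1 passed the lower threshold at 0.554 (0.551 to 0.558), while mt-Co2 was at 0.634 (0.613 to 0.655) and mt-Co3 at 0.647 (0.635 to 0.660). Their Dicer cKO/ScxHt ratios were 2.19, 2.06 and 2.04.

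The ATP synthase genes mt-Atp8 (chrM:7766-7969) and mt-Atp6 (chrM:7927-8607) both encode membrane subunits. mt-Atp8 had 12413 counts in Control tendon, 7494 in ScxHt and 13824 in Dicer cKO, and mt-Atp6 had 28599, 18201 and 36063. Unlike mt-Nd4l and mt-Nd4, this pair differed in proportion between libraries. mt-Atp8 held 30.3% of the pair's counts in the Control (29.8 to 30.7%), 29.2% in ScxHt (28.6 to 29.7%) and 27.7% in Dicer cKO (27.3 to 28.1%), 3 intervals that do not overlap. The shared 43 bases are a larger part of mt-Atp8, which is 204 bases long, than of mt-Atp6, which is 681. How reads over these bases were counted is not known here, and the intervals hold only if each read belongs to a single gene.

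Counts of the tRNA genes were low throughout. Their sum was 764 in Control tendon, 516 in ScxHt and 949 in Dicer cKO, and the median gene had 9, 9 and 10.5 counts. Mature tRNAs are short, structured and modified and are known to be poorly captured by standard RNA-seq libraries. mt-Tl1 had 402 counts in Control tendon, 220 in ScxHt and 390 in Dicer cKO, mt-Tw had 145, 61 and 211, and mt-Tg had 49, 66 and 76. These 3 genes held 67.2 to 78.0% of all tRNA counts. mt-Tl1 and mt-Tw had fewer counts in ScxHt than in either other library, and mt-Tg did not.

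In ScxHt/Control the ratio was 0.524 (0.443 to 0.619) for mt-Tl1 and 0.403 (0.294 to 0.547) for mt-Tw, both called lower. mt-Tg, which carries glycine, was at 1.29 (0.878 to 1.91), an interval that holds 1. In Dicer cKO/ScxHt mt-Tl1 was at 1.95 (1.65 to 2.32) and mt-Tw at 3.81 (2.85 to 5.16), both called higher. mt-Tg was the one gene of the 16 not called, at 1.27 (0.900 to 1.79). Against the Control, Dicer cKO was at 1.01 (0.874 to 1.16) for mt-Tl1, 1.51 (1.22 to 1.88) for mt-Tw and 1.61 (1.11 to 2.36) for mt-Tg. None of the 3 passed the threshold.

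Of the 22 tRNA genes 14 lie on the plus strand and 8 on the minus strand. The plus-strand genes had 718 counts in Control tendon, 437 in ScxHt and 811 in Dicer cKO, and the minus-strand genes had 46, 79 and 138. The minus strand thus held 6.02% (4.44 to 7.95%), 15.3% (12.3 to 18.7%) and 14.5% (12.4 to 16.9%) of the tRNA counts, lowest in the Control. A large part came from mt-Tp, with 8 counts in Control tendon, 42 in ScxHt and 50 in Dicer cKO. Its ratios were 5.03 (2.33 to 12.4) in ScxHt/Control and 6.49 (3.05 to 15.9) in Dicer cKO/Control, under the minimum baseMean. Its neighbour mt-Tt, on the plus strand, had 11, 9 and 10 counts. Without mt-Tp the minus strand held 5.03% (3.58 to 6.83%), 7.81% (5.56 to 10.6%) and 9.79% (7.92 to 11.9%), and the ScxHt interval overlapped both others. mt-Tc, for cysteine, had 0 counts in every library, which, with 3 counts as the limit that a count of 0 allows, is a share of up to 0.000899% of mitochondrial counts in ScxHt, the library with the fewest. It lies within a nuclear copy on chromosome 2 described below. Without a known strand setting, reads of the opposite precursor cannot be told apart from minus-strand tRNAs, mt-Tp included.

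**Figure D3:**
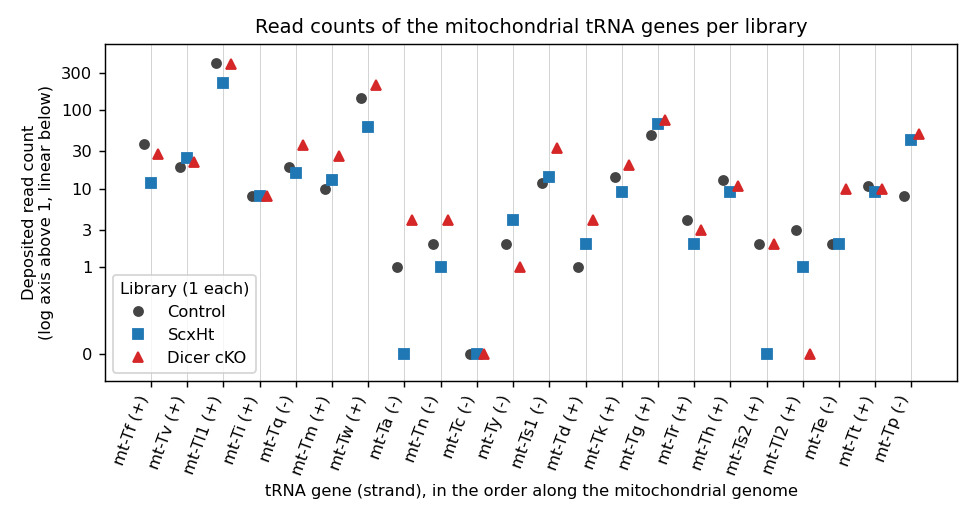
Deposited read counts (log axis above 1, linear below) of the 22 mitochondrial tRNA genes in their order along the genome, with the strand in brackets, 1 point per library. mt-Tl1, mt-Tw and mt-Tg hold most counts, mt-Tc is at 0 in each library, and mt-Tp has 8 counts in the Control against 42 and 50 in the other libraries.

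Part of the mitochondrial genome has near-identical copies in nuclear DNA, and reads from these stretches fit both places. With hits on 1 other chromosome left out, the longest copy lies at chr1:24611535-24616188 on the minus strand of GRCm38. Its 4654 aligned bases are 99.9% identical to the mitochondrial stretch from 6390 to 11042, with 2 mismatches. mt-Co2, mt-Atp8, mt-Atp6, mt-Co3, mt-Nd3 and mt-Nd4l lie wholly within it, as does mt-Tg, and 31.3% of mt-Co1 and 63.6% of mt-Nd4 do. A copy of 3260 aligned bases on chromosome 2, at 97.4% identity, spans all of mt-Co1 and mt-Tw. Counts of these genes are therefore uncertain, and nuclear rows for such copies were not analysed here. Of the 35 genes, 20 to 30 per library had counts that were not whole before rounding (tolerance 0.05), as worked back from the RPKM. The 5 genes outside the chromosome 1 copy had median log2 ratios of 0.27 in Dicer cKO/Control, -0.79 in ScxHt/Control and 1.19 in Dicer cKO/ScxHt, and the 6 genes inside it had 0.35, -0.72 and 1.07. The direction was the same on both sides of its border, which cannot show whether reads of nuclear copies entered the counts. Among the 5 outside genes, 49.2% of mt-Nd2 and 52.4% of mt-Nd5 lie in other copies of at least 95% identity. All shares of genes within copies likewise leave out the hits on that other chromosome, so they may be too low. mt-Co1 and mt-Nd4, partly inside, had medians of 0.15, -1.02 and 1.19.

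Nuclear-encoded respiratory chain genes, listed by name, differed between libraries in the same direction as the mitochondrial ones. They differed by less in the comparisons with ScxHt. Their median log2 ratio was 0.32 in Dicer cKO/Control, -0.21 in ScxHt/Control and 0.60 in Dicer cKO/ScxHt. In Dicer cKO/Control 4 of 82 were called higher and 0 lower, in ScxHt/Control 0 higher and 3 lower of 82, and in Dicer cKO/ScxHt 18 higher and 0 lower of 83. Of all genes compared, 3.87% were called higher in Dicer cKO/Control, 4.71% lower in ScxHt/Control and 7.68% higher in Dicer cKO/ScxHt, so the counts against the Control were near those of all genes. In ScxHt/Control 74 of the 82 had a ratio above the highest mitochondrial protein gene, and in Dicer cKO/ScxHt 75 of the 83 had a ratio below the lowest. In Dicer cKO/Control 13 lay below and 19 above the range of the mitochondrial protein genes. Thus mitochondrial counts per 100 counts of these nuclear genes were 911 in Control tendon, 609 in ScxHt and 865 in Dicer cKO.

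By complex, nuclear-encoded median log2 ratios in Dicer cKO/ScxHt were 0.58 for complex I, 0.65 for complex II, which has no mitochondrial subunit, 0.81 for complex III, 0.67 for complex IV and 0.61 for complex V. Nuclear genes were assigned to complexes by name alone, so a list can hold genes that are not subunits of its complex. Mitochondrial medians were 1.24 for complex I, 1.05 for complex IV and 1.08 for complex V. Cox8b, a muscle isoform of a complex IV subunit, had 317 counts in Control tendon, 244 in ScxHt and 567 in Dicer cKO, the highest Dicer cKO/Control ratio of the list at 1.86 (1.62 to 2.14). Ndufs8, an iron-sulfur subunit of complex I, followed at 1.85 (1.53 to 2.23). The lowest were Ndufa4l2 at 0.672 (0.613 to 0.737) and Cox4i2 at 0.716 (0.606 to 0.845), both known as hypoxia-linked paralogs of other subunits. Cox6a2 and Cox7a1, muscle isoforms with 32 and 50 counts in ScxHt, were the 2 genes of the list below the lowest mitochondrial protein gene in ScxHt/Control, at 0.403 and 0.363.

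Genes that express the mitochondrial genome differed less than the mitochondrial genes in the comparisons with ScxHt. In Dicer cKO/Control the mitochondrial ribosome list, given below, had a median log2 ratio of 0.27, close to that of the mitochondrial protein genes. The list of mitochondrial transcription and RNA processing had a median log2 ratio of 0.16 in Dicer cKO/Control, 0.01 in ScxHt/Control and 0.15 in Dicer cKO/ScxHt, the order kept for the lists that follow. Of its members compared, 1 of 34, 0 of 32 and 2 of 33 were called higher and 0 lower, near or under the 3.87%, 3.03% and 7.68% of all genes. Tefm, the elongation factor of the mitochondrial polymerase, was the one called against the Control, with 67, 69 and 119 counts in the Control, ScxHt and Dicer cKO and a ratio of 1.84 (1.36 to 2.53). Supv3l1, a helicase of mitochondrial RNA decay, was at 1.61 (1.34 to 1.96). The lowest were Elac2, which cuts the 3′ ends of tRNAs, at 0.789 (0.659 to 0.943), and Fastkd5, which acts in the release of mRNAs without flanking tRNAs, at 0.816 (0.645 to 1.03).

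For replication and upkeep of mitochondrial DNA the medians were 0.11, 0.10 and 0.21. None of the 19 genes was called in either comparison against the Control, and 2 were higher in Dicer cKO/ScxHt, where 7.68% of all genes were. Slc25a4, the ADP/ATP carrier of heart and skeletal muscle, had the highest Dicer cKO/Control ratio at 1.59 (1.54 to 1.64), and Rnaseh1, which removes RNA from RNA:DNA hybrids, was at 1.5 (1.16 to 1.93). Top3a, a topoisomerase, was lowest at 0.808 (0.664 to 0.983), with Polg2, the accessory subunit of the polymerase, at 0.859 (0.643 to 1.14).

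Mitochondrial ribosomal proteins had medians of 0.27, 0.04 and 0.25, with 4 of 72 called higher in Dicer cKO/Control, 1 of 70 lower in ScxHt/Control, and 4 higher and 1 lower of 72 in Dicer cKO/ScxHt. Over all genes these shares were 3.87% higher, 4.71% lower, and 7.68% higher and 5.68% lower, so the counts were near or under them. Mrps7 at 2.04 (1.60 to 2.60) and Mrpl11 at 2.02 (1.45 to 2.84) had the highest Dicer cKO/Control ratios, and Mrps11 at 0.642 (0.473 to 0.867) and Mrpl10 at 0.820 (0.677 to 0.991) the lowest. The aminoacyl-tRNA synthetases, which charge the tRNAs, had medians of 0.04, -0.18 and 0.24. Of these, 1 was higher and 1 lower of 21 in Dicer cKO/Control, 3 of 21 were lower in ScxHt/Control and 5 of 20 higher in Dicer cKO/ScxHt. The shares of all genes were 3.87% and 4.19%, 4.71% and 7.68%. Lars2, for leucine, was highest in Dicer cKO/Control at 1.90 (1.69 to 2.13), followed by Rars2, for arginine, at 1.39 (1.20 to 1.62). Wars2, for tryptophan, was lowest at 0.588 (0.471 to 0.730), followed by Pars2, for proline, at 0.698 (0.463 to 1.04).

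The regulators of mitochondrial biogenesis had medians of 0.28, -0.24 and 0.17. Of 17, 3 were called higher in Dicer cKO/Control, 1 higher and 4 lower in ScxHt/Control, and 8 higher in Dicer cKO/ScxHt, against 3.87%, 3.03% and 4.71%, and 7.68% of all genes. Sirt3, the mitochondrial deacetylase, had 62 counts in Control tendon, 135 in ScxHt and 138 in Dicer cKO, a Dicer cKO/Control ratio of 2.31 (1.70 to 3.17). Ppara, a nuclear receptor of fatty acid oxidation, had 76, 49 and 167 counts and a ratio of 2.28 (1.73 to 3.03). Pprc1, a coactivator of the PGC-1 family, was lowest at 0.621 (0.556 to 0.692), and Ppard was at 0.697 (0.595 to 0.814).

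**Figure D4:**
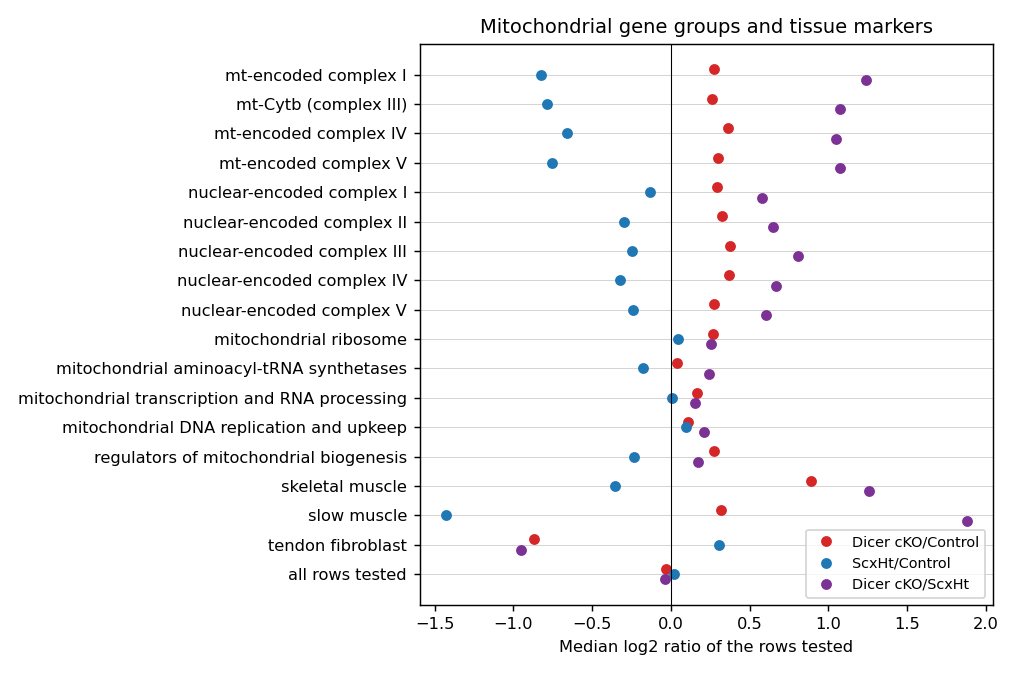
Median log2 ratio of each gene group over its genes with a baseMean above 50, 1 point per comparison and 1 library per genotype; mt-Cytb is a single gene. Mitochondrially encoded groups lie between -0.82 and -0.66 in ScxHt/Control and between 1.05 and 1.24 in Dicer cKO/ScxHt, farther from 0 than the nuclear-encoded complexes, and slow muscle markers lie farther still.

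Markers of other tissues differed between the same libraries. The 20 skeletal muscle markers summed to 65980 CPM (counts scaled to the library total) in Control tendon, 37598 in ScxHt and 114436 in Dicer cKO, the same order as the mitochondrial share, and none was at 0. Their median log2 ratio was 0.89 in Dicer cKO/Control, -0.35 in ScxHt/Control and 1.26 in Dicer cKO/ScxHt. In ScxHt/Control they went both ways, with 9 of 20 called lower and 3 higher, against 4.71% and 3.03% of all genes. In Dicer cKO/Control 13 were called higher and in Dicer cKO/ScxHt 18, against 3.87% and 7.68%. Ttn, the giant sarcomere protein, had 688745, 329060 and 1062032 counts in the Control, ScxHt and Dicer cKO, and Neb, of the thin filament, had 105426, 56880 and 165807. Mitochondrial counts per 100 counts of these markers were 52.4 in Control tendon, 56.4 in ScxHt and 38.8 in Dicer cKO. The Control and ScxHt were thus closer to each other on this scale than per library, and Dicer cKO was below both. Ttn alone held most of the summed marker counts, which were 1070105, 591929 and 1709243, so the scale largely follows 1 gene. Relative to the median of the markers, the mitochondrial protein genes were lower in ScxHt than in the Control, at log2 -0.43. The summed scale put ScxHt above the Control.

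The 9 slow muscle markers, of the mitochondria-rich fibre type, summed to 5004, 1978 and 6257 CPM, with medians of 0.32, -1.43 and 1.88. All 9 were called lower in ScxHt/Control and higher in Dicer cKO/ScxHt, against 4.71% and 7.68% of all genes. Myh7, the slow myosin heavy chain, had 40759, 14202 and 47563 counts, and Atp2a2, the slow calcium pump, had 13549, 7547 and 12865. The median of the mitochondrial protein genes differed from that of the slow markers by -0.041, 0.64 and -0.75 on the log2 scale. The 13 tendon fibroblast markers summed to 143075, 130272 and 83223 CPM, with medians of -0.87, 0.30 and -0.95. Both comparisons with Dicer cKO thus went against the mitochondrial genes, while in ScxHt/Control 9 of the 13 counting intervals were above 1 and 4 below, and the sum was lower. Col1a1, the main chain of type I collagen, had 1261322, 925996 and 658168 counts, and Col1a2 had 708695, 658387 and 391822. The part of muscle and tendon content in the mitochondrial differences was not tested.

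The other marker lists are given in the same order of libraries and comparisons. Erythroid markers summed to 190, 195 and 462 CPM, with medians of 1.18, -0.04 and 1.22. Macrophage markers summed to 237, 442 and 189, with medians of -0.39, 0.77 and -1.07, and endothelial markers to 682, 503 and 794, with medians of 0.14, -0.43 and 0.68. Schwann cell markers had medians of 2.12, -0.15 and 2.64. Adipocyte markers, of which 1 of 10 was at 0 in every library, summed to 1652, 1980 and 1978, with medians of 0.11, 0.15 and -0.0019. For the 2 most abundant markers of these lists, leaving out Schwann cells, the Dicer cKO/Control ratio was 2.63 for Hba-a1 and 2.26 for Hba-a2 (haemoglobin alpha), 0.769 for Mrc1 and 0.738 for Lyz2 (macrophages), and 1.08 for Cdh5 and 1.18 for Pecam1 (endothelial junctions). It was 1.32 for Lpl and 1.17 for Plin4, of lipid uptake and storage, in a list of which 4 of 8 counting intervals were above 1 and 3 below. Their part was not tested either.

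Among abundant nuclear non-coding RNAs, Rn7s1 and Rn7s2, near-identical genes of the 7SL RNA of the signal recognition particle, had values close to those of the mitochondrial genes. Rn7s1 had 34824 counts in Control tendon, 23106 in ScxHt and 41497 in Dicer cKO, with ratios of 1.24 (1.22 to 1.25), 0.636 (0.625 to 0.646) and 1.98 (1.95 to 2.01). Their counts are uncertain because reads fit both copies. Malat1, a nuclear-retained RNA, had ratios of 0.913, 1.04 and 0.895, and Neat1, of paraspeckles, 0.706, 0.718 and 1.0. The 8 structural and nuclear RNAs compared had medians of 0.21, -0.31 and 0.47, with 0 called in the comparisons against the Control. In Dicer cKO/ScxHt 2 were called higher, where 7.68% of all genes were. These 2 are Rn7s1 and Rn7s2, which share reads and so are not separate signals. Whether RNA recovery or library preparation differed between the libraries was not tested.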

How the data were processed

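Total RNA of Achilles tendon was sequenced from 1 Control, 1 ScxHt and 1 Dicer cKO sample. The authors trimmed adaptors, aligned paired-end reads with TopHat and Bowtie2 (GRCm38) and counted them with HTSeq. Tool versions, annotation release and strand setting were not given in the sources used here. The deposited read counts, labelled raw, were used for all ratios and the RPKM deposited by the authors for levels per length. The intervals treat counts as whole, separate reads, although many mitochondrial counts were not whole before rounding, as described above. Of 54189 lines 463 repeated another and were counted once.

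Size factors came from DESeq2 1.42.0 in R 4.3.3, of the 2 libraries in each comparison. Ratios and 95% Clopper-Pearson intervals were computed in Python 3.11.15 with scipy 1.17.1 and pandas 2.3.3, and tested on simulated data. Figures were drawn with matplotlib 3.10.9. Positions and sequences came from GENCODE vM21 and the GRCm38 sequence, and nuclear copies from BLAST 2.17.0. The minimum baseMean and thresholds follow the study's methods, and no p-value was computed. Members and lists were chosen with earlier results of these data known. All protein genes are named, as are tRNAs above the minimum baseMean, the 2 highest and 2 lowest of each gene list by Dicer cKO/Control and the 2 most abundant markers of each tissue, of which some values are not reported here; mt-Tp, mt-Tt, mt-Tc, Cox6a2 and Cox7a1 were named after their values were seen. Alternatives were edgeR 4.0.16 TMM and other scalings, other minimums and thresholds, a pseudocount and the RPKM. Small RNA-seq was not used here.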

Additional observations from a re-analysis of the deposited data

How the results depend on the processing

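With 1 library per genotype, no spread between mice was available, and the low counts limit most tRNA genes. No paired analysis was possible because each genotype has 1 library. The median log2 ratio of the protein genes in Dicer cKO/Control (0.27) was 0.30 with TMM, 0.34 with total counts, 0.30 with total counts without features above 1% of a library and 0.34 from RPKM, and turned to -0.61 relative to the skeletal muscle list and -0.047 relative to the nuclear respiratory chain list. In ScxHt/Control (-0.79) it was -0.68 with total counts and from RPKM, -0.43 relative to muscle and -0.58 relative to the respiratory chain. In Dicer cKO/ScxHt (1.13) it was 1.06 with total counts and from RPKM, 0.53 relative to the respiratory chain and -0.13 relative to muscle. Of the genes called in Dicer cKO/Control (0 higher, 0 lower), 1 was higher with total counts and from RPKM, 4 with a baseMean above 10 and 8 with no minimum, and 3 were lower relative to muscle and 2 with no minimum. In ScxHt/Control (0 higher, 9 lower), 1 was higher with a baseMean above 10 and 3 with no minimum; 4 were lower relative to muscle, 4 relative to the respiratory chain, 4 at thresholds of 2 and 0.5, and 15 with no minimum. In Dicer cKO/ScxHt (15 higher, 0 lower), 0 were higher relative to muscle, 2 relative to the respiratory chain and 25 with no minimum, and 1 was lower relative to muscle and 2 with no minimum. Leaving out the genes wholly or partly inside the chromosome 1 copy, mt-Co1 and mt-Nd4 included, an alternative chosen after seeing the data, gave 5 lower in ScxHt/Control, and 7 higher and a median of 1.19 in Dicer cKO/ScxHt; fewer genes are then counted. The mitochondrial share was 4.37%, 2.56% and 5.44% in the Control, ScxHt and Dicer cKO with other features above 1% left out of the total, and 1.89%, 1.18% and 2.48% without mt-Co1, also chosen after seeing the data. The other values, 24 medians, 35 counts of higher and 36 of lower genes and 3 shares, stayed within their counting interval or within 1.5 times the main count. For a median, this was the interval of the gene at the median alone. That gene was mt-Nd1 in Dicer cKO/Control, mt-Cytb in ScxHt/Control and mt-Atp6 in Dicer cKO/ScxHt. The causes of these shifts were not tested beyond the scalings themselves. Adding nuclear copies, or leaving out the rRNA genes, was not run because no such row was analysed here.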
